A study of Homo sapiens with 9 samples.

Results

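The mitochondrial respiratory chain and ATP synthase were followed here at the level of their nuclear genes. Members were the probe sets assigned to exactly 1 gene whose symbol began with NDUFA, NDUFB, NDUFC, NDUFS, NDUFV, UQCR, COX4 to COX8 or ATP5, or was SDHA, SDHB, SDHC, SDHD or CYC1. A gene with several probe sets was represented by the brightest, judged by its mean over all 9 arrays. The rule used names only and no measured difference. It found 73 probe sets of 72 genes, among 14215 genes measured by a probe set of 1 gene. Of the 72 genes, 61 encode subunits: 27 of complex I, 3 of complex II, 6 of complex III, 14 of complex IV and 11 of complex V, the ATP synthase. The other 11 share a prefix but encode no subunit and are described apart: 7 complex I assembly factors (NDUFAF1 to NDUFAF7), the supercomplex factor COX7A2L, the ATP synthase inhibitor ATP5IF1, ATP5MGL, a gene similar to the one for subunit g, and the pseudogene UQCRBP1.

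The cells were SKOV3, an established human line from an ovarian tumour. They stayed in T75 flasks for 3 days in McCoys5A medium with 10% FBS, and 3 separate flasks were used for each of 3 groups. The untreated group received no sugar. The second group received 50 µM peracetylated GlcNAc (Ac-GlcNAc), a form of N-acetylglucosamine whose hydroxyl groups carry acetyl groups that help it enter cells. The third received 50 µM peracetylated 4-deoxy-GlcNAc (Ac-4-deoxy-GlcNAc), the same sugar without the hydroxyl at carbon 4. The sources used here describe no vehicle for the untreated flasks, and all 9 arrays come from this 1 cell line. Levels are log2 values, 1 for each probe set and array, so a difference of 1 is a doubling.

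The respiratory chain lies in the inner mitochondrial membrane. Complex I takes electrons from NADH and complex II takes them from succinate, and both pass them through ubiquinone to complex III. Cytochrome c carries them on to complex IV, which reduces oxygen. Complexes I, III and IV pump protons as they work, and the ATP synthase makes ATP from the flow of protons back. Complexes I, III, IV and V hold subunits from both nuclear and mitochondrial DNA, whereas complex II is wholly nuclear. Dedicated assembly factors build the complexes without staying in them. In an array of bulk RNA, less RNA per cell, fewer mitochondria per cell and fewer cells of a kind cannot be told apart.

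Array medians lay between 6.58 and 6.65, and the spread over probe sets (SD) was 2.07 to 2.18 on 8 arrays and 1.92 on untreated array 2. That array also had the lowest mean correlation with the others, 0.987, against 0.990 to 0.994. The array that was most often the lowest of its 3 was untreated array 2 (36 of the 72 members), Ac-GlcNAc array 3 (39) and Ac-4-deoxy-GlcNAc array 1 (42). Of 10 epithelial markers expected in this line, 9 were measured and 8 lay above the median level of all probe sets, 6.63, including ERBB2 at 12.24, KRT8 at 11.11 and PAX8 at 10.69; WT1 stood at 5.70. Of 7 leukocyte markers, 5 were measured and 4 lay below that median, among them PTPRC at 4.19 and CD3E at 4.69, and CD68 stood above it at 9.24. With Ac-4-deoxy-GlcNAc against untreated CD68 was called lower (-0.37, limma adjusted p = 0.0455), and the other measured leukocyte markers were not called. All 5 endothelial markers lay below that median, from TEK at 4.14 to PECAM1 at 5.52. In the same comparison PECAM1 was called higher (0.41, limma adjusted p = 0.0178), and the other endothelial markers were not called. The summed level of 7 fibroblast markers was 43.1 to 44.15 in untreated arrays, 41.32 to 41.9 with Ac-GlcNAc and 40.77 to 40.94 with Ac-4-deoxy-GlcNAc. The fibroblast markers differed unequally with Ac-4-deoxy-GlcNAc against untreated: COL1A1 by -0.92, COL1A2 by -0.85 and LUM by -0.46. All of these were called (limma adjusted p = 0.000176, 0.000576 and 0.0474). COL3A1 and DCN differed by -0.31, PDGFRB by -0.01 and THY1 by 0.18, with no call. In that comparison KRT7 (-0.46) and KRT19 (-0.49) were called lower and CDH1 (0.45) higher. The other measured epithelial markers were not called. Between the sugars COL1A1 was called lower (-0.56, limma adjusted p = 0.00781), and CDH1 (0.55, adjusted p = 0.0112) and KDR (0.36, adjusted p = 0.0497) higher. The part of these markers in the results was not tested.

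Among the members, 67 of 72 had a mean level above the 25th percentile of all probe sets, 4.89, and 58 lay above the median. A further 28 probe sets name a rule symbol together with another gene and were left out, and 17 of the rule's symbols are present on these alone. Of the 28, none was called with Ac-GlcNAc against untreated or between the sugars, beside 0.442% and 2.38% of all probe sets. The comparison of Ac-4-deoxy-GlcNAc to untreated called 3, beside 11.0%. SDHB was not analysed here.

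COX7A1 and NDUFAF4 were the members called in both comparisons that involve Ac-4-deoxy-GlcNAc. Each comparison was tested with limma over all 17859 probe sets, two-sided, and a probe set was called where its Benjamini-Hochberg adjusted p was under 0.05. With Ac-GlcNAc against untreated, 0 of 72 members were called, beside 0.442% of all probe sets. At an unadjusted p under 0.05 the same limma fit gave 14 members, 9 higher and 5 lower, beside 26.4% of all probe sets. With Ac-4-deoxy-GlcNAc against untreated, 4 of 72 members were called, beside 11.0% of all probe sets. The 1 higher was COX7A1, beside 5.38% of all probe sets called higher, and the 3 lower were NDUFAF4, NDUFA5 and NDUFAF3, beside 5.64% called lower. At an unadjusted p under 0.05 there were 20 members, 9 higher and 11 lower, beside 31.2% of all. Ac-4-deoxy-GlcNAc against Ac-GlcNAc called 2 of 72 members, beside 2.38% of all probe sets: COX7A1 higher, beside 0.896%, and NDUFAF4 lower, beside 1.48%. At an unadjusted p under 0.05 this comparison gave 10 members, 2 higher and 8 lower, beside 13.6%. The F test, which asks whether the 3 groups differ at all, called COX7A1, NDUFA5 and NDUFAF4, 3 of 72 beside 8.36% of all probe sets. Both comparisons with untreated use the same untreated arrays, and the 2 comparisons with Ac-4-deoxy-GlcNAc use the same arrays of that group.

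The arrays of 2 groups did not overlap for 18 members with Ac-GlcNAc against untreated, 10 higher and 8 lower, beside 32.3% of all probe sets. With Ac-4-deoxy-GlcNAc against untreated this held for 15 members, 5 higher and 10 lower, beside 32.1%. Between the sugars it held for 13, 3 higher and 10 lower, beside 21.2%. No test was made of whether these shares differ from the background. The 95% interval of each log2 difference was also set against 1.5-fold either way (0.58 on the log2 scale). It lay inside for 62 of 72 members with Ac-GlcNAc against untreated, beside 85.4% of the 14215 genes. With Ac-4-deoxy-GlcNAc against untreated it did so for 56, beside 81.5%, and between the sugars for 63, beside 91.8%.

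The median log2 difference over the 72 members was 0.05 with Ac-GlcNAc, 0.03 with Ac-4-deoxy-GlcNAc and -0.03 between the sugars, beside -0.01, -0.05 and -0.00 over the 14215 genes. None of the member medians kept its sign in every fit. The one with Ac-GlcNAc was -0.036 after cyclic loess and -0.035 after quantile normalization of the deposited values. With 1 array left out at a time the member medians ranged from 0.024 to 0.080, from -0.010 to 0.048 and from -0.071 to 0.0013.

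**Figure D1:**
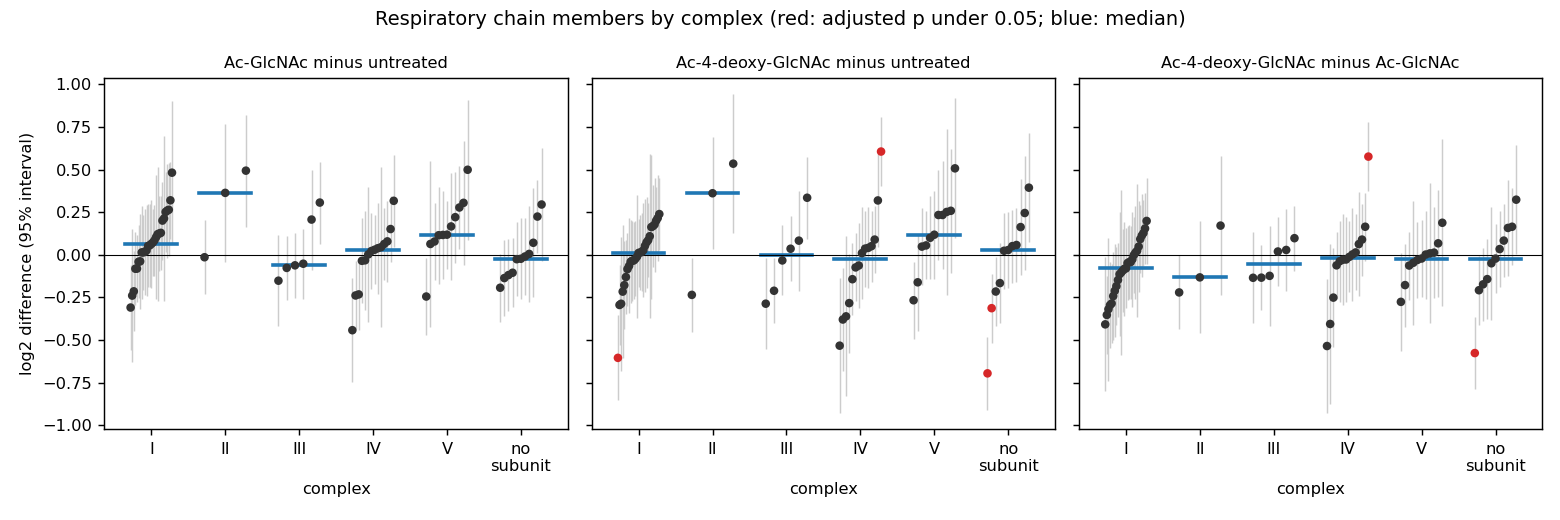
Log2 difference of each of the 72 members (points, with 95% intervals) in the 3 comparisons, grouped by complex, with the median of each group as a blue bar and called members in red. Most points lie within 0.5 of 0; NDUFA5, COX7A1, NDUFAF3 and NDUFAF4 are red in the middle panel, and COX7A1 and NDUFAF4 are red in the right panel, between the sugars.

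Complex I, the NADH dehydrogenase, had 1 of its 27 measured subunits called with Ac-4-deoxy-GlcNAc against untreated, beside 11.0% of all probe sets. This was NDUFA5, which was lower. NDUFA5 is an accessory subunit of the arm that reaches into the matrix. Its log2 levels were 6.09, 6.12 and 6.17 in untreated cells, 5.78, 6.02 and 5.65 with Ac-GlcNAc, and 5.71, 5.50 and 5.36 with Ac-4-deoxy-GlcNAc. All 6 treated arrays lay below all 3 untreated arrays, and the arrays of the 2 sugars overlapped. The mean level of NDUFA5, 5.82, was below the median of all probe sets, 6.63, so the fit restricted to levels above that median did not test it. Against untreated, Ac-4-deoxy-GlcNAc arrays were 1.52-fold lower (log2 difference -0.60 ± 0.12 SE, limma adjusted p = 0.00745). With Ac-GlcNAc the difference was -0.31 (95% interval -0.56 to -0.06, adjusted p = 0.13), and between the sugars it was -0.30 (-0.55 to -0.05, adjusted p = 0.252), both uncalled. The call against untreated held with each of the 6 compared arrays left out in turn, with adjusted p from 0.00896 to 0.0415. It was lost when the SD of each array was added to the fit as a covariate, where the difference was -0.51 (adjusted p = 0.063).

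The 4 nuclear core subunits of complex I that were measured belong to the part that moves electrons: NDUFV1 binds NADH and the flavin, NDUFS7 and NDUFS8 hold iron-sulfur clusters near ubiquinone, and NDUFS3 is a structural neighbour of them. None was called. NDUFV1 stood at 9.42, 9.25 and 9.27 in untreated cells, 9.36, 9.34 and 9.12 with Ac-GlcNAc and 9.16, 9.24 and 9.29 with Ac-4-deoxy-GlcNAc. The groups overlapped, and the intervals of its differences from untreated were -0.26 to 0.17 with Ac-GlcNAc and -0.30 to 0.13 with Ac-4-deoxy-GlcNAc. NDUFS3 and NDUFS7 differed from untreated by 0.12 and 0.13 with Ac-GlcNAc, and by -0.02 and 0.09 with Ac-4-deoxy-GlcNAc. NDUFS8 was less precise, with an interval of -0.26 to 0.47 with Ac-GlcNAc and -0.37 to 0.35 with Ac-4-deoxy-GlcNAc. The other core subunits were not analysed here.

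Over all 27 subunits the median difference was 0.06 with Ac-GlcNAc, 0.01 with Ac-4-deoxy-GlcNAc and -0.08 between the sugars. With Ac-GlcNAc the highest was NDUFA2, an accessory subunit of the NADH-binding end, at 0.48 (adjusted p = 0.148), and the lowest was NDUFA5. NDUFA2 levels were 8.01, 7.85 and 8.53 in untreated cells, 8.46, 8.43 and 8.94 with Ac-GlcNAc and 7.98, 8.27 and 8.63 with Ac-4-deoxy-GlcNAc. Untreated array 3 was over 0.5 above its partners, and without it the difference with Ac-GlcNAc was 0.68 (adjusted p = 0.0707). Without Ac-GlcNAc array 3 it was 0.32 (adjusted p = 0.372), and it was -0.039 in a fit that took array spread, the SD over its probe sets, as covariate. A limma fit with replicate number as a block called NDUFA2 with Ac-GlcNAc (0.48, adjusted p = 0.044). NDUFV3, another accessory subunit of that end, had the smallest p with Ac-GlcNAc (0.32, adjusted p = 0.107) and between the sugars (-0.35, adjusted p = 0.111). Its levels were 7.46, 7.13 and 7.19 in untreated cells, 7.70, 7.55 and 7.48 with Ac-GlcNAc and 7.24, 7.18 and 7.25 with Ac-4-deoxy-GlcNAc, so the Ac-GlcNAc arrays lay above all others. Without untreated array 1, NDUFV3 was called with Ac-GlcNAc (adjusted p = 0.0411); over the 6 such fits the difference ranged from 0.25 to 0.42 and the adjusted p reached 0.342. With Ac-4-deoxy-GlcNAc the highest was NDUFA9, a subunit beside the ubiquinone site, at 0.24 (0.03 to 0.45, adjusted p = 0.118). Between the sugars the extremes were NDUFB9, a membrane arm subunit, at -0.41 (adjusted p = 0.344), and NDUFS6, a small subunit that binds zinc, at 0.20 (adjusted p = 0.533). NDUFB9 rests on 1 array: its levels were 10.93, 10.11 and 10.96 with Ac-4-deoxy-GlcNAc and 10.92 to 11.29 on the other 6 arrays. Without Ac-4-deoxy-GlcNAc array 2 its difference between the sugars was -0.13 (adjusted p = 0.793).

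**Figure D2:**
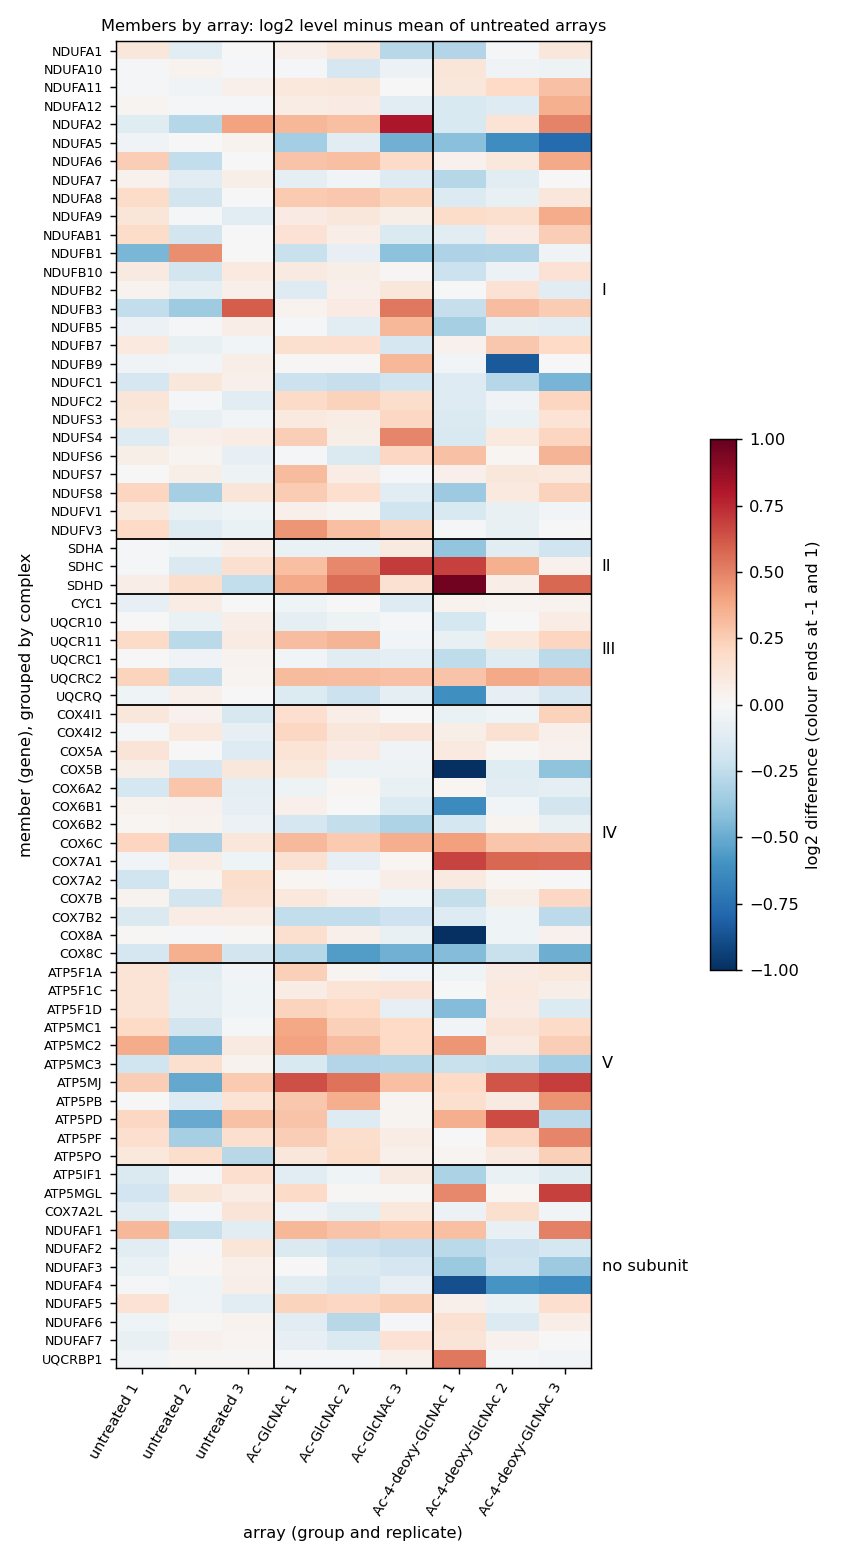
Log2 level of the 72 members on each of the 9 arrays minus the mean of the untreated arrays, with members in rows by complex and arrays in columns by group; red is higher, blue is lower, and colours end at -1 and 1. NDUFAF4 and NDUFA5 are blue and COX7A1 is red on all 3 Ac-4-deoxy-GlcNAc arrays, while COX5B, COX8A and NDUFB9 are darkest on a single array.

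Complex II, succinate dehydrogenase, had no called member among the 3 measured, beside 0.442%, 11.0% and 2.38% of all probe sets in the 3 comparisons. SDHC and SDHD, which anchor the enzyme in the membrane, had positive differences from untreated with both sugars, whereas SDHA, the flavoprotein that oxidises succinate, did not. SDHC levels were 9.75, 9.63 and 9.93 in untreated cells, 10.07, 10.25 and 10.47 with Ac-GlcNAc and 10.46, 10.13 and 9.82 with Ac-4-deoxy-GlcNAc. The Ac-GlcNAc arrays lay above all untreated arrays, with a difference of 0.49 (0.17 to 0.82, adjusted p = 0.097), the smallest p of any member in that comparison. With Ac-4-deoxy-GlcNAc the SDHC difference was 0.36 (0.03 to 0.69, adjusted p = 0.128), and 1 array fell within the untreated range. Without Ac-4-deoxy-GlcNAc array 1 it was 0.20 (adjusted p = 0.369).

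SDHD levels were 6.94, 7.05 and 6.63 in untreated cells, 7.25, 7.43 and 7.03 with Ac-GlcNAc and 7.84, 6.94 and 7.45 with Ac-4-deoxy-GlcNAc. Its difference with Ac-4-deoxy-GlcNAc was 0.53 (0.13 to 0.94, adjusted p = 0.0812). Array 2 of that group was over 0.5 below both its partners, and without it the difference was 0.77 and called (adjusted p = 0.0136). With only probe sets above the median level kept, the difference was called as well (adjusted p = 0.0357). Without array 1 of that group, the highest, it was 0.32 (adjusted p = 0.228). SDHA levels were 11.54, 11.52 and 11.63 in untreated cells, 11.50, 11.50 and 11.65 with Ac-GlcNAc and 11.17, 11.46 and 11.36 with Ac-4-deoxy-GlcNAc. The Ac-4-deoxy-GlcNAc arrays lay below those of both other groups, with a difference from untreated of -0.24 (-0.45 to -0.02, adjusted p = 0.133), or -0.15 without array 1 (adjusted p = 0.35); it was called after quantile normalization (adjusted p = 0.0455) and after cyclic loess (adjusted p = 0.0353). The median over the 3 was 0.36 against untreated with each sugar and -0.13 between the sugars. Without untreated array 2 and Ac-4-deoxy-GlcNAc array 1 together, the median with Ac-4-deoxy-GlcNAc was 0.13. Between the sugars the SDHA, SDHC and SDHD differences were -0.22, -0.13 and 0.17. Leaving out Ac-4-deoxy-GlcNAc array 1 turned them to -0.14, -0.30 and -0.043.

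Complex III, which passes electrons from ubiquinone to cytochrome c, had no called member among the 6 measured. The background was again 0.442%, 11.0% and 2.38% of all probe sets in the 3 comparisons. UQCRC2, a core protein of the matrix side, had the smallest p with both sugars. Its levels were 11.24, 10.78 and 11.05 in untreated cells, 11.34, 11.33 and 11.32 with Ac-GlcNAc and 11.31, 11.40 and 11.36 with Ac-4-deoxy-GlcNAc. All 6 treated arrays lay above all untreated arrays, and untreated array 2 was the lowest. The differences were 0.31 with Ac-GlcNAc (0.07 to 0.55, adjusted p = 0.124) and 0.33 with Ac-4-deoxy-GlcNAc (0.09 to 0.58, adjusted p = 0.0682). Both passed the threshold when untreated array 1 was left out, with adjusted p of 0.0433 and 0.0203. The one with Ac-4-deoxy-GlcNAc also passed with only probe sets above the median level kept (adjusted p = 0.0402). It passed with array weights (adjusted p = 0.0487) and with a trended, robust variance model (adjusted p = 0.0314) too. Without untreated array 2 the differences with Ac-GlcNAc and Ac-4-deoxy-GlcNAc were 0.18 (adjusted p = 0.419) and 0.21 (adjusted p = 0.202). Its partner UQCRC1 had a difference of -0.21 with Ac-4-deoxy-GlcNAc (-0.40 to -0.02, adjusted p = 0.125), with all 3 arrays below untreated. UQCRC1 was called after quantile normalization (adjusted p = 0.0337) and after cyclic loess (adjusted p = 0.0376). The lowest was UQCRQ, a small subunit that helps hold the ubiquinone-binding part, at -0.15 with Ac-GlcNAc (adjusted p = 0.436), -0.29 with Ac-4-deoxy-GlcNAc (adjusted p = 0.136) and -0.13 between the sugars (adjusted p = 0.778). Ac-4-deoxy-GlcNAc array 1 of UQCRQ stood at 9.54 against 10.06 and 9.98, and without it the last 2 differences were -0.12 (adjusted p = 0.436) and 0.027 (adjusted p = 0.9999). CYC1, cytochrome c1, had overlapping ranges against untreated: 9.18 to 9.33 in untreated cells, 9.13 to 9.25 with Ac-GlcNAc and 9.29 to 9.30 with Ac-4-deoxy-GlcNAc. The median over the 6 was -0.06, 0.00 and -0.05 in the 3 comparisons.

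Complex IV, cytochrome c oxidase, had 1 of 14 measured members called: COX7A1 rose with Ac-4-deoxy-GlcNAc. The shares over all probe sets were 11.0% against untreated and 2.38% between the sugars. COX7A1 encodes the form of subunit 7A known from heart and skeletal muscle. Its levels were 5.25, 5.34 and 5.22 in untreated cells, 5.42, 5.19 and 5.29 with Ac-GlcNAc and 5.95, 5.84 and 5.84 with Ac-4-deoxy-GlcNAc. The 3 Ac-4-deoxy-GlcNAc arrays lay above all 6 others, and the untreated and Ac-GlcNAc arrays overlapped. It was 1.52-fold higher than untreated (0.61 ± 0.09 SE, limma adjusted p = 0.0027) and 1.49-fold higher than with Ac-GlcNAc (0.58 ± 0.09 SE, adjusted p = 0.00668). With Ac-GlcNAc against untreated the difference was 0.03 (-0.17 to 0.23). Both calls held without each compared array in turn and in all 10 other settings that tested it. All of its levels were below the median of all probe sets. Of 7 striated muscle markers, 4 were measured and all lay below the median, from TTN at 3.81 to CKM at 4.88. Their summed level was 18.25 to 19.00 in untreated cells, 17.62 to 17.99 with Ac-GlcNAc and 17.54 to 18.35 with Ac-4-deoxy-GlcNAc. The Ac-4-deoxy-GlcNAc range overlapped both others, and the part of these markers in the COX7A1 result was not tested.

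COX7A2, the form of subunit 7A found in most tissues, had a difference of 0.04 with Ac-4-deoxy-GlcNAc (-0.19 to 0.26) and 0.02 with Ac-GlcNAc (-0.20 to 0.25). The other tissue-restricted forms were not called. COX6A2, the muscle form of subunit 6A, differed by -0.06 with Ac-4-deoxy-GlcNAc (-0.31 to 0.19). COX6B2 and COX7B2, known from testis, differed by -0.07 and -0.14, and their common forms COX6B1 and COX7B by -0.28 (-0.57 to 0.01) and 0.01 (-0.26 to 0.28). Without Ac-4-deoxy-GlcNAc array 1, which stood at 11.24 against 11.85 and 11.70, the COX6B1 difference was -0.105. COX4I1 and COX4I2, the common and the oxygen-responsive form of subunit 4, differed by 0.04 and 0.09, although COX4I2 was called higher after quantile normalization (adjusted p = 0.0418) and cyclic loess (adjusted p = 0.0451). COX8C, the testis form of subunit 8, had levels of 4.60, 5.12 and 4.58 in untreated cells, 4.48, 4.21 and 4.29 with Ac-GlcNAc and 4.34, 4.55 and 4.28 with Ac-4-deoxy-GlcNAc. All were under the 25th percentile of mean level except 1 untreated array, and the treated arrays lay below the untreated ones. Its differences were -0.44 with Ac-GlcNAc (adjusted p = 0.102) and -0.38 with Ac-4-deoxy-GlcNAc (adjusted p = 0.0938); without untreated array 2 they were -0.27 and -0.20.

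COX5B, a nuclear subunit on the matrix side, had the lowest difference of complex IV with Ac-4-deoxy-GlcNAc. Its levels were 11.00, 10.78 and 11.05 in untreated cells, 11.05, 10.89 and 10.89 with Ac-GlcNAc and 9.87, 10.82 and 10.54 with Ac-4-deoxy-GlcNAc. Array 1 of that group was far below the rest, and the range of the group overlapped the untreated one. The difference from untreated was -0.53 (-0.93 to -0.14, adjusted p = 0.0752), and -0.26 without array 1 (adjusted p = 0.194). Without array 2 of that group it was -0.74 and called (adjusted p = 0.0191). The difference from untreated was also called after cyclic loess (adjusted p = 0.0465) and with only probe sets above the median level kept (adjusted p = 0.0318). Between the sugars the COX5B difference was -0.54 (adjusted p = 0.169), and -0.26 without array 1. Without array 2 it was -0.74 and called (adjusted p = 0.0365). COX8A, the common form of subunit 8, had the same array low: 10.47 against 11.51 and 11.60 for its partners and 11.48 to 11.71 on the other 6 arrays. Its difference from untreated was -0.36 (adjusted p = 0.266) with that array and 0.00 without it (adjusted p = 0.994). COX6C, a membrane subunit, was the highest of complex IV with Ac-GlcNAc at 0.32 (0.05 to 0.59, adjusted p = 0.144) and stood at 0.32 with Ac-4-deoxy-GlcNAc as well (adjusted p = 0.109), where it was called without untreated array 1 (adjusted p = 0.0414). Without untreated array 2, at 9.39 against 9.93 and 9.83, the COX6C differences were 0.15 (adjusted p = 0.491) and 0.16 (adjusted p = 0.344). All 6 treated COX6C arrays lay above the untreated ones. The median over the 14 members was 0.03, -0.03 and -0.02 in the 3 comparisons.

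**Figure D3:**
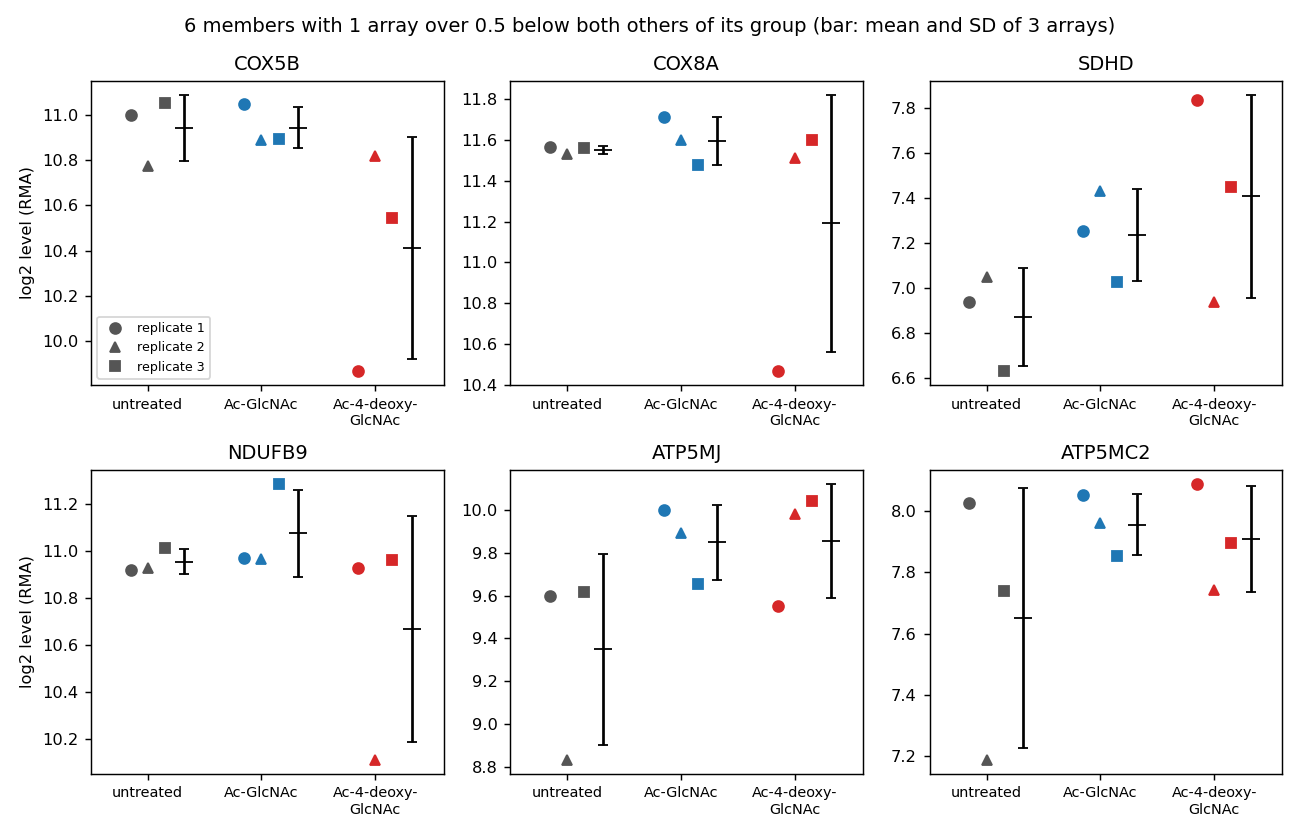
Log2 levels of COX5B, COX8A, SDHD, NDUFB9, ATP5MJ and ATP5MC2 on the 9 arrays (points, shaped by replicate number) with the mean and SD of the 3 arrays of each group. In each panel 1 array lies over 0.5 below both others of its group: Ac-4-deoxy-GlcNAc array 1 for COX5B and COX8A, its array 2 for SDHD and NDUFB9, and untreated array 2 for ATP5MJ and ATP5MC2.

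Complex V, the ATP synthase, had no called member among 11. Most differences from untreated were positive, 10 of 11 with Ac-GlcNAc and 9 of 11 with Ac-4-deoxy-GlcNAc, with medians of 0.12 and 0.12. Over all genes, 6862 and 5901 of 14215 were positive. The 11 members share the same untreated arrays, so their signs are not separate observations. Untreated array 2 was low for these genes: the mean over the 11, relative to the untreated mean, was 0.14, -0.19 and 0.05 on the untreated arrays, 0.25, 0.16 and 0.06 with Ac-GlcNAc, and 0.04, 0.17 and 0.16 with Ac-4-deoxy-GlcNAc. The groups therefore overlapped. ATP5MJ, a small subunit of the membrane part, had the largest differences. Its levels were 9.60, 8.83 and 9.61 in untreated cells, 10.00, 9.89 and 9.65 with Ac-GlcNAc and 9.55, 9.98 and 10.04 with Ac-4-deoxy-GlcNAc. The differences of 0.50 (adjusted p = 0.134) and 0.51 (adjusted p = 0.0963) became 0.24 (adjusted p = 0.49) and 0.25 (adjusted p = 0.333) without untreated array 2. The one with Ac-4-deoxy-GlcNAc was called with only probe sets above the median level kept (adjusted p = 0.0471).

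ATP5MC1, ATP5MC2 and ATP5MC3 encode the same mature subunit c, whose ring turns in the membrane. With Ac-GlcNAc they differed from untreated by 0.28, 0.30 and -0.24, and with Ac-4-deoxy-GlcNAc by 0.10, 0.26 and -0.27, with no call. ATP5MC3 had the lowest difference of complex V in both comparisons with untreated. Its levels were 9.38, 9.74 and 9.62 in untreated cells, 9.42, 9.28 and 9.29 with Ac-GlcNAc and 9.36, 9.34 and 9.24 with Ac-4-deoxy-GlcNAc, where the arrays lay below all untreated ones. Without untreated array 1 it was called lower with Ac-4-deoxy-GlcNAc (adjusted p = 0.0342); over the 6 such fits the difference ranged from -0.36 to -0.19 and the adjusted p reached 0.297. Without untreated array 2 the ATP5MC2 differences were 0.07 and 0.03. Between the sugars the extremes were ATP5F1D, the delta subunit of the stalk, at -0.28 (adjusted p = 0.392), and ATP5PD, a subunit of the side stalk, at 0.19 (adjusted p = 0.858). Without Ac-4-deoxy-GlcNAc array 1 the ATP5F1D difference was -0.14, and the ATP5PD difference was -0.012 without array 2 and 0.45 without array 3. The catalytic head subunit ATP5F1A differed by 0.08 (-0.15 to 0.30) with Ac-GlcNAc and 0.05 (-0.18 to 0.27) with Ac-4-deoxy-GlcNAc.

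**Figure D4:**
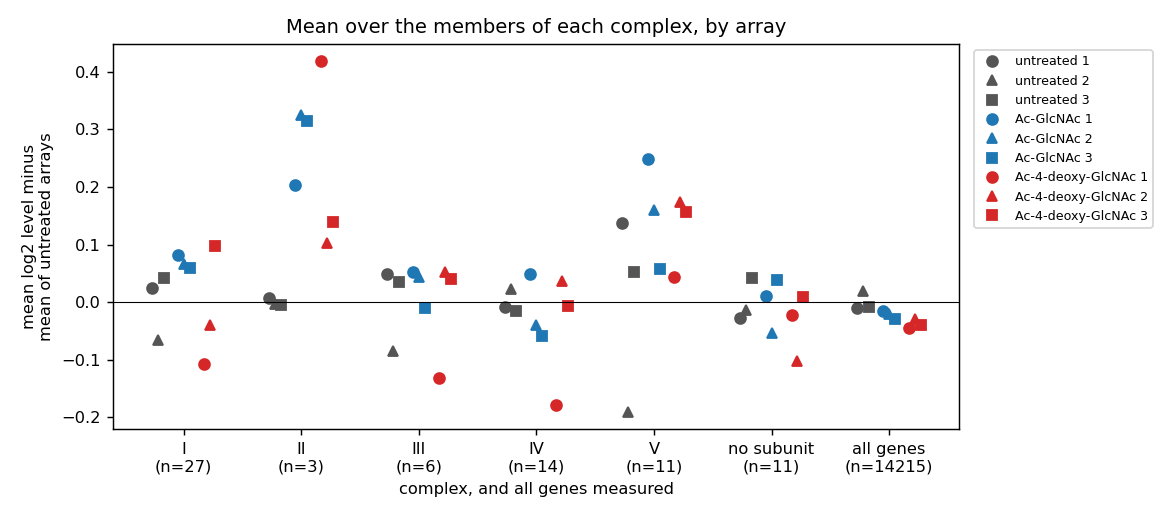
Mean over the members of each complex on every array, as log2 level minus the mean of the 3 untreated arrays, beside the mean over all 14215 genes. For complex III, IV and V the 3 groups overlap, and for complex I the Ac-GlcNAc arrays lie just above the untreated ones and within the Ac-4-deoxy-GlcNAc range, with untreated array 2 at -0.19 for complex V and Ac-4-deoxy-GlcNAc array 1 at -0.18 for complex IV; the mean of the 3 complex II genes lies above 0.1 on all 6 treated arrays.

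The array means of the complexes showed how far single arrays lay from their partners. The mean over complex I was -0.11, -0.04 and 0.10 on the 3 Ac-4-deoxy-GlcNAc arrays, a wider range than its 0.06 to 0.08 with Ac-GlcNAc, where all 3 arrays lay above the untreated -0.07 to 0.04. Complex IV stood at -0.18, 0.04 and -0.01 with Ac-4-deoxy-GlcNAc, where array 1 held the low values of COX5B and COX8A. Complex II lay above the untreated arrays on all treated ones, with 0.20, 0.32 and 0.31 with Ac-GlcNAc and 0.42, 0.10 and 0.14 with Ac-4-deoxy-GlcNAc against -0.00 to 0.01 in untreated cells; it is a mean of 3 genes, of which SDHA did not share the direction.

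Of the 11 members that are no subunit, 2 were called with Ac-4-deoxy-GlcNAc against untreated, beside 11.0% of all probe sets. Both were assembly factors of complex I and both were lower, beside 5.64% of all probe sets called lower. NDUFAF4 acts with NDUFAF3 early in building the arm of complex I that reaches ubiquinone. NDUFAF4 levels were 8.12, 8.09 and 8.19 in untreated cells, 8.03, 7.97 and 8.05 with Ac-GlcNAc and 7.26, 7.55 and 7.51 with Ac-4-deoxy-GlcNAc. The Ac-4-deoxy-GlcNAc arrays lay far below the other 6, and the Ac-GlcNAc arrays lay just below the untreated ones. NDUFAF4 was 1.62-fold lower than untreated (-0.70 ± 0.10 SE, limma adjusted p = 0.00155) and 1.49-fold lower than with Ac-GlcNAc (-0.58 ± 0.10 SE, adjusted p = 0.009). With Ac-GlcNAc against untreated the difference was -0.12 (-0.33 to 0.09, adjusted p = 0.444). Both calls held without each compared array in turn and in all 11 other settings.

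NDUFAF3 levels were 8.47, 8.55 and 8.59 in untreated cells, 8.53, 8.39 and 8.37 with Ac-GlcNAc and 8.17, 8.34 and 8.17 with Ac-4-deoxy-GlcNAc. The Ac-4-deoxy-GlcNAc arrays lay below all others. The difference from untreated was -0.31 ± 0.09 SE (1.24-fold lower, adjusted p = 0.0489), just past the threshold. It stayed called in 2 of the 6 fits that left out a compared array, those without untreated array 1 and without Ac-4-deoxy-GlcNAc array 2, and the adjusted p ranged from 0.0421 to 0.166. Between the sugars NDUFAF3 differed by -0.21 (-0.41 to -0.00, adjusted p = 0.354). In RefSeq the extent of NDUFAF3 overlaps that of DALRD3, and the sources used here do not say which strand or exons the probe set reads.

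**Figure D5:**
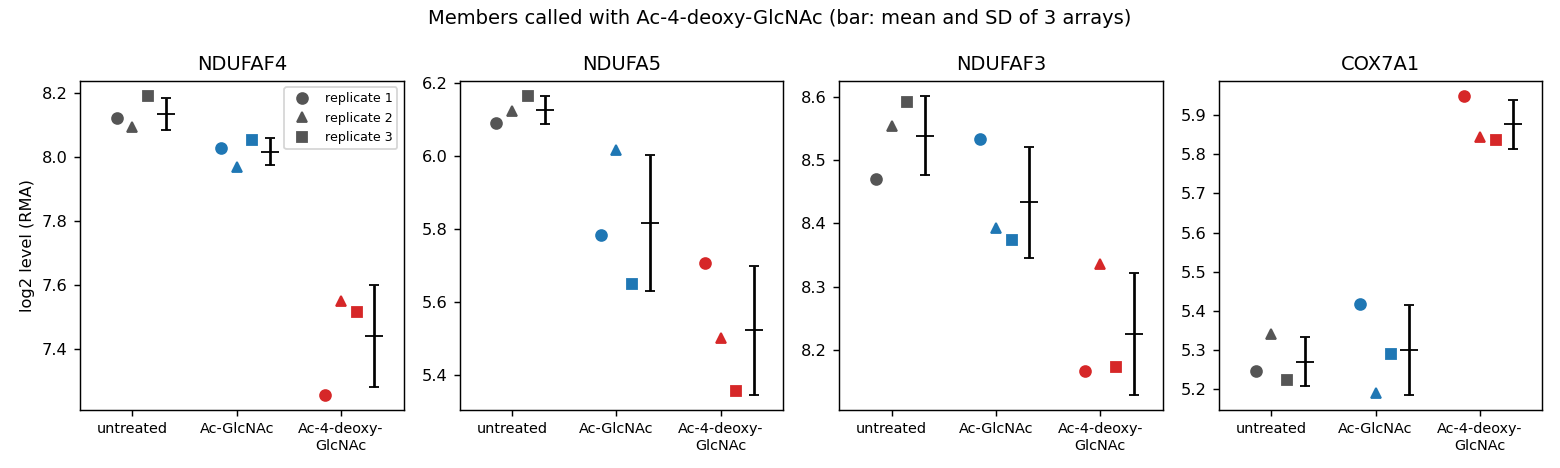
Log2 levels of NDUFAF4, NDUFA5, NDUFAF3 and COX7A1, the members called with Ac-4-deoxy-GlcNAc against untreated, on each array (points) with the mean and SD of the 3 arrays of each group. The Ac-4-deoxy-GlcNAc arrays lie below the untreated arrays for the first 3 genes and above them for COX7A1.

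The other assembly factors with this prefix were not called. NDUFAF1 differed by 0.29 with Ac-GlcNAc and 0.25 with Ac-4-deoxy-GlcNAc (0.18 and 0.13 without untreated array 2), NDUFAF5 by 0.22 and 0.05, NDUFAF6 by -0.14 and 0.03, and NDUFAF7 by -0.03 and 0.06. NDUFAF2, which had the lowest difference of this group with Ac-GlcNAc (-0.19), was measured near the bottom of the scale at 3.20 to 3.59. COX7A2L, which helps join complexes III and IV, differed by -0.01 (-0.23 to 0.21) and 0.02 (-0.20 to 0.25). ATP5IF1, which blocks the ATP synthase from running in reverse, differed by -0.02 (-0.26 to 0.21) and -0.17 (-0.40 to 0.07), the latter -0.092 without Ac-4-deoxy-GlcNAc array 1. ATP5MGL had the highest difference with Ac-4-deoxy-GlcNAc, 0.39 (0.07 to 0.71, adjusted p = 0.0972), and between the sugars, 0.32 (adjusted p = 0.363); it was called after quantile normalization (adjusted p = 0.0456) and without Ac-4-deoxy-GlcNAc array 2 (adjusted p = 0.016), while without array 3 of that group its difference from untreated was 0.25 (adjusted p = 0.354). UQCRBP1 lay at 3.41 to 3.48 on 8 arrays and at 3.97 on Ac-4-deoxy-GlcNAc array 1.

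The promoters of respiratory genes are known for binding sites of NRF1, of ETS factors such as GABPA and of YY1. The windows of 250 bases before to 50 after each start were taken from RefSeq (GRCh38.p14), which matched 59 of the 72 members with 73 windows; COX7A1 is not among them. The searched letters were GCGCATGC for NRF1, CCGGAAG for ETS factors and AAGATGG for YY1, on both strands. GCGCATGC was present in 17.8% of member windows beside 3.05% of 35116 windows of all genes, CCGGAAG in 20.55% beside 10.3%, AAGATGG in 17.8% beside 5.84%, and any of the 3 in 43.8% beside 17.6%. The mean GC content was 59.0% beside 57.5%. For complexes I to V, any of the 3 motifs was present in 41.4%, 50%, 80%, 33.3% and 69.2% of windows. For the members that are no subunit, NDUFAF4 among them, it was present in 2 of 12 windows (16.7%). NDUFAF3 has 4 windows, and its 250 bases before each start hold none of the 3 motifs. The 250 bases before the start are shown for NDUFAF4 and NDUFA5, the called genes that hold such letters there, with the matches in capitals. NDUFAF4, read on the minus strand at chr6:96897892-96898141, holds CCGGAAG ending 140 bases before the start and GCGCATGC after the start, outside the part shown. NDUFA5 has 3 windows, and the one shown, on the minus strand at chr7:123557819-123558068, holds GCGCATGC and, nearer the start, AAGATGG. The other NDUFA5 windows hold none of the 3 motifs. A match describes letters, not binding.
NDUFAF4: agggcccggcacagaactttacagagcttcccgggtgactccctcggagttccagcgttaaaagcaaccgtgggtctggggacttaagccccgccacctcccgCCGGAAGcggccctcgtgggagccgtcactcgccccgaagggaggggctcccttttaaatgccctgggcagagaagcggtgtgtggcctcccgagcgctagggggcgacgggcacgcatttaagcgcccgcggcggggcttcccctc
NDUFA5: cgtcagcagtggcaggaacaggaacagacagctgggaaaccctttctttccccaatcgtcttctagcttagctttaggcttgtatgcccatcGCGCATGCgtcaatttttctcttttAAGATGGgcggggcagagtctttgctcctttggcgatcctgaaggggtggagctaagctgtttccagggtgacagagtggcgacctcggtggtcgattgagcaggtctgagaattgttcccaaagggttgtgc

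Genes that serve the chain without meeting the rule were counted from 9 lists, beside the same backgrounds as above. With Ac-GlcNAc against untreated no gene of any list was called, beside 0.442% of all probe sets. The smallest p in each of 3 lists belonged to COX15 of complex IV assembly (0.37, adjusted p = 0.0918), HIF1A (0.35, adjusted p = 0.0887) and YME1L1 (0.42, adjusted p = 0.0761). In the other lists it belonged to DLAT of the citric acid cycle (adjusted p = 0.0887), MTERF2 of mitochondrial DNA expression (0.0968), SDHAF2 (0.109), TMEM126A (0.115), ETFDH (0.125) and DMAC2L (0.268). With Ac-4-deoxy-GlcNAc against untreated, complex I assembly had 2 of 18 called, beside 11.0% of all probe sets. These were the NDUFAF3 and NDUFAF4 already described. Complex II and III assembly had 1 of 9 called, beside the same 11.0%. LYRM7, which helps place the iron-sulfur protein of complex III, fell by 0.42 on the log2 scale (adjusted p = 0.036, called in 1 of 6 fits that left out a compared array).

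Complex IV assembly had 3 of 11 called with Ac-4-deoxy-GlcNAc against untreated, beside 11.0% of all probe sets. COX18, which inserts a mitochondrially made subunit into the membrane, was lower at 7.49, 7.80 and 7.76 against 8.15, 8.32 and 8.45 untreated and 8.22, 8.16 and 8.37 with Ac-GlcNAc. The Ac-4-deoxy-GlcNAc arrays of COX18 lay below all others. It differed by -0.62 from untreated (adjusted p = 0.00627) and by -0.57 from Ac-GlcNAc (adjusted p = 0.0215); the first call held without each compared array, the second in 1 of 6 such fits. COX10, an enzyme of heme synthesis for complex IV, was higher (0.39, adjusted p = 0.0212, called in 3 of 6 such fits). COX14, which stabilises the first subunit, was also higher (0.82, adjusted p = 0.035), called in 1 of 6 fits that left out an array, with untreated levels of 7.55, 6.51 and 6.65.

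Expression of mitochondrial DNA had 2 of 20 called with Ac-4-deoxy-GlcNAc against untreated, both higher, beside 5.38% of all probe sets called higher. TSFM, an elongation factor of mitochondrial translation, stood at 7.23, 7.14 and 7.18 untreated, 7.40, 7.42 and 7.41 with Ac-GlcNAc and 7.88, 7.63 and 8.10 with Ac-4-deoxy-GlcNAc. The 3 groups of TSFM did not overlap. It differed by 0.68 from untreated (adjusted p = 0.00325) and by 0.46 from Ac-GlcNAc (adjusted p = 0.0488, called in 1 of 6 fits that left out an array). TEFM, an elongation factor of mitochondrial transcription, was higher by 0.35 (adjusted p = 0.0452, called in 2 of 6). Of 12 regulators measured, 2 were called against untreated, both higher, beside the same 5.38%. HIF1A, the oxygen-responsive factor, rose by 0.36 (adjusted p = 0.0289, called in 2 of 6) and PPARGC1A, a coactivator of mitochondrial genes, by 0.42 (adjusted p = 0.0449). The PPARGC1A call was lost in each of the 6 fits that left out a compared array.

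Among 11 genes of mitochondrial stress and quality control, YME1L1, a protease of the inner membrane, rose by 0.46 (adjusted p = 0.0136, called in 5 of 6 fits that left out a compared array) and PHB1, prohibitin, fell by 0.51 on the log2 scale (adjusted p = 0.0259, called in 3 of 6). No gene was called among 4 of ATP synthase assembly, 16 of ubiquinone and cytochrome c or 18 of the citric acid cycle; their smallest p belonged to TMEM242 (-0.34, adjusted p = 0.234), COQ8A (-0.31, adjusted p = 0.0847) and PDHX (0.38, adjusted p = 0.075). Between the sugars COQ8A, which supports ubiquinone synthesis, was lower by the test (-0.51, adjusted p = 0.0304), with levels of 6.14, 6.34 and 6.07 against 6.68, 6.55 and 6.84 with Ac-GlcNAc; the call held in 1 of 6 fits that left out an array.

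Precision is limited by having 3 flasks a group, and the median SE of a member's difference was 0.11. Leaving out untreated array 1 raised the member calls with Ac-4-deoxy-GlcNAc against untreated from 4 to 8, beside 17.2% of all probe sets in that fit, and leaving out array 2 of the treated group raised them to 7, beside 9.99%. With any other single array left out the count was 3, beside 3.38% to 9.11%.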

How the data were processed

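Total RNA of 9 flasks was labelled and hybridised to 9 arrays, whose titles give group and replicate number. The authors deposited log2 values, 1 per probe set and array, which the submitters' processing notes credit to RMA and Partek and to genome build hg18; versions, filters and scan batches are not given in the sources used here. Unequal array spreads show that the values do not share one distribution, and no scanner files were used, so signal over background was not assessed.

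Probe sets were named from the platform annotation: 14413 of 17859 have 1 gene, 2405 several and 1041 none. Symbols were updated by gene identifier through RefSeq, which held 14385 of the 14413; no member's symbol changed. Values were used as deposited in limma 3.58.1 (R 4.3.3): all 9 arrays in 1 fit, group as the only term, 6 residual degrees of freedom, Benjamini-Hochberg adjustment over all probe sets. The script was tested on simulated data. Flasks are separate cultures per the labels, and p-values measure the spread between them. Alternatives were other normalizations, filters on low values, variance models, array weights, a replicate block, a covariate for array spread, and leaving out arrays; the fit without untreated array 2 and Ac-4-deoxy-GlcNAc array 1 together was chosen after seeing the data.

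Members and lists were chosen with earlier results of these data known. Named genes were all called members, the highest and lowest member of each complex in each comparison, the SDH genes and the core subunits of complex I. Paralogs, ATP5IF1, and from each of the 9 lists up to 3 called genes or the one of smallest p were named too. Some genes with an array over 0.5 from its partners, and some called under an alternative, were added after their values were seen. Not every call under an alternative is given.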

Additional observations from a re-analysis of the deposited data

How the results depend on the processing

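COX7A1 and NDUFAF4 kept their calls in both comparisons that involve Ac-4-deoxy-GlcNAc under every alternative that tested them. Member calls with Ac-GlcNAc against untreated were 1 with array weights, beside 9.85% of all probe sets in the same fit. With the replicate block the 1 call was NDUFA2 (0.48, adjusted p = 0.044), beside 1.81%. At an adjusted p under 0.1 there was 1 (7.41%), and with 1 array left out there were 0 to 2 (0.0224% to 7.61%). With Ac-4-deoxy-GlcNAc against untreated they were 8 after cyclic loess (2 higher, beside 12.7% of all probe sets), 8 after quantile normalization (3 higher, 12.3%), 2 with array spread as covariate (3.34%), 2 over subunits only and 11 at an adjusted p under 0.1 (20.9%), and 3 to 8 with 1 array left out. Between the sugars the member calls were 1 above the 50th percentile of level (5.68%), where COX7A1 was not tested. They were 5 with array weights (6.65%), 1 over subunits only (2.38%), and 2 to 3 with 1 array left out (0.790% to 3.69%). The F test called 5 after quantile normalization (8.23%), 5 with array weights (16.3%), and 2 to 6 with 1 array left out (2.74% to 14.2%). Median differences with Ac-GlcNAc against untreated, after cyclic loess, after quantile normalization and with array spread as covariate, were -0.036, -0.035 and -0.039 over members and -0.034, -0.037 and -0.039 over complex I; after the first 2 they were -0.17 and -0.17 over complex III and -0.070 and -0.068 over complex IV, and complex V gave -0.036 with the covariate. With that covariate, Ac-4-deoxy-GlcNAc against untreated gave -0.049 over members, -0.11 over complex I and -0.12 over complex III. Without untreated array 2 and Ac-4-deoxy-GlcNAc array 1 together, complex II gave 0.13 against untreated and complex III 0.040 between the sugars. With 1 array left out, the median of complex I with Ac-4-deoxy-GlcNAc against untreated ran from -0.081 to 0.050, and that of complex III between the sugars from -0.072 to 0.040. Same-numbered arrays deviated together with correlations of -0.245 to 0.369, and not every array correlated best with its own number. Among same-numbered pairs the highest value was between untreated and Ac-GlcNAc array 3, and not all such pairs passed 0.1. Over all pairs the highest, 0.406, was between untreated array 1 and Ac-4-deoxy-GlcNAc array 3, which differ in number. Deviations from a mean of 3 arrays sum to 0 within each group, so these correlations cannot decide whether flasks were paired. The labels do not say that replicate numbers pair flasks, and the main fit did not treat the arrays as paired. The replicate block gave 1, 3 and 2 member calls in the 3 comparisons, and 324, 2207 and 432 over all probe sets against 79, 1968 and 425. Over all probe sets, calls with Ac-GlcNAc ran from 2 with the covariate to 1760 with array weights, and with Ac-4-deoxy-GlcNAc fell to 596 with the covariate and 818 with the 6 compared arrays alone. The causes of these shifts were not tested.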

Other observations

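Of the subunits encoded in mitochondrial DNA, which the rule does not take in, ND5 and ND6 of complex I had a probe set of 1 gene; both were chosen after their values were seen. ND5 stood at 12.88, 12.60 and 12.74 in untreated cells, 13.02, 12.99 and 12.97 with Ac-GlcNAc and 12.93, 12.96 and 13.03 with Ac-4-deoxy-GlcNAc. All 6 treated arrays lay above the untreated ones, with differences of 0.25 (limma adjusted p = 0.131) and 0.23 (adjusted p = 0.118), neither called. ND6 stood at 7.64, 7.54 and 7.54 in untreated cells, 7.77, 7.41 and 7.42 with Ac-GlcNAc and 8.09, 7.72 and 7.84 with Ac-4-deoxy-GlcNAc. Its difference from untreated with Ac-4-deoxy-GlcNAc was 0.31 (0.04 to 0.57, adjusted p = 0.11), and that from Ac-GlcNAc was 0.35 (adjusted p = 0.177). ND5 and ND6 lie on opposite strands of the mitochondrial genome and overlap no nuclear member.

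COX7A2 had another, dim probe set, with a mean level of 4.00 against 10.79 for the one used. It differed by -0.36 with Ac-GlcNAc (adjusted p = 0.126) and by -0.11 with Ac-4-deoxy-GlcNAc (adjusted p = 0.597), and neither was called.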
